A study of Mus musculus with 3 samples.

Results

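Bone morphogenetic protein (BMP) signalling in the mouse intestinal epithelium was followed through the RNA of 9 genes, from ligand to target genes. These were the ligand Bmp3, the receptors Bmpr1a and Bmpr2, the shared signal transducer Smad4, the inhibitory Smads Smad6 and Smad7, and the Id genes Id1, Id2 and Id3. They were taken by symbol from the feature list, which holds 51912 genes, and all 9 were found once. Their unique molecular identifiers (UMIs, which count captured transcripts) were read from single-cell RNA sequencing of 2 Arid3a cKO libraries and 1 WT library.

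Arid3a cKO mice carried VillinCreERT2 and Arid3a fl/fl, so that tamoxifen removed Arid3a only in cells that use the Villin promoter, that is in the epithelium. WT mice carried VillinCreERT2 alone, so Cre and tamoxifen were shared by both genotypes. Tamoxifen was given at 8 to 10 weeks of age and tissue was taken 1 month after the first injection. Dissociated crypts had been sorted for living Epcam-positive cells without CD45 and CD31. The labels number the libraries but do not say how many animals each came from, so p-values refer to these libraries. In comparisons between groups of cells, with library as a block, they rest on how differences within a library vary between libraries. Between genotypes the spread comes from the 2 Arid3a cKO libraries alone, as there is 1 WT library.

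BMP ligands bind pairs of type I and type II serine/threonine kinase receptors, which phosphorylate receptor Smads; these enter the nucleus with Smad4 and switch on targets, among them the Id genes and the feedback inhibitors Smad6 and Smad7. Id proteins lack a DNA-binding domain and hold E proteins in inactive dimers. In the intestine, BMP activity is known to be low at the crypt base, where antagonists from the mesenchyme protect stem cells, and to rise along the villus.

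All 9 genes are protein-coding, and positions are those of GRCm38 (GENCODE M21). Id1 spans chr2:152736251-152737410 and Id3 chr4:136143497-136145755, both on the plus strand, and Id2 chr12:25093799-25097140 on the minus strand. Smad6 spans chr9:63953076-64022059 on the minus strand, Bmp3 chr5:98854415-98884396 and Bmpr2 chr1:59763400-59879014 on the plus strand, and Bmpr1a chr14:34410734-34503341 on the minus strand. An antisense gene, Gm17110, overlaps Bmpr1a, AC132418.2 overlaps Smad4 on the other strand and Gm38125 overlaps Bmpr2 on its own strand. How the counting treated strand is not given in the sources used here, so reads of these neighbours cannot be told apart from those of the 3 genes.

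Id2, Smad6 and Bmpr1a are the members whose level was highest in enteroendocrine-like cells in every library, and RefSeq upstream sequence (GRCm38.p6) is shown for them, 5′ to 3′ on each gene's strand, as far as it holds no annotated exon. A window was at hand for 5 of the 9 genes. Capitals mark GGCGCC, a GC-rich motif known to bind BMP-type receptor Smads. CAGAC and its reverse complement GTCTG, known to bind Smad4, were searched on both strands too. The Id2 stretch covers chr12:25096254-25096342 (minus strand, 89 bases), Smad6 chr9:64022060-64022309 (minus strand, 250 bases) and Bmpr1a chr14:34502688-34502796 (minus strand, 109 bases). The Id2 and Bmpr1a stretches lie inside the GENCODE gene spans given above. They are thus upstream of a RefSeq start but not of the whole annotated gene, and only the Smad6 stretch lies outside its span.
Id2: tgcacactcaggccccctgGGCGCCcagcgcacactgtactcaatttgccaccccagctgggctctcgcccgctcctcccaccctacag
Smad6: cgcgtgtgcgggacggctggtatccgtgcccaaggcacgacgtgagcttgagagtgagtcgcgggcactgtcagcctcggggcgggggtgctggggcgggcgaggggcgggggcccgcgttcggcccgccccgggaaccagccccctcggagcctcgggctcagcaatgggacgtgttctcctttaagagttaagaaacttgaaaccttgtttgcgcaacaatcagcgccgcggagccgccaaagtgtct
Bmpr1a: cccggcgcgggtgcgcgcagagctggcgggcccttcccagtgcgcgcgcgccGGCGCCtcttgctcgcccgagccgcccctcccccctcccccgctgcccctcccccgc
GGCGCC occurred once in the Id2 and once in the Bmpr1a stretch, where 2.73% and 3.41% of 32841 windows cut to the same bases held it. Neither of these stretches held CAGAC or GTCTG, against 17.7% and 21.4% of windows. The Smad6 stretch held neither motif, against 9.59% of windows with GGCGCC and 42.2% with CAGAC or GTCTG. These letter matches describe the windows and do not show binding.

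Of 25554 barcodes, 5594 had at least 1000 genes and at most 15% mitochondrial UMIs, from 1550 to 2134 per library and with medians of 29895 to 35764 UMIs. Levels are given as UMIs of a gene per 1000000 UMIs (CPM). Arid3a itself stood at 0.592 and 0.894 CPM in the knockout libraries and at 2.57 CPM in the control. Clusters were named from marker genes, without the members or other pathway genes among the clustering features. Per library they gave 851 to 1199 enterocyte-like, 257 to 327 transit-amplifying (TA)-like, 220 to 351 stem-like, 131 to 160 goblet-like, 43 to 87 enteroendocrine-like, 27 to 50 tuft-like and 17 to 34 Paneth-like cells. In 5 of the 7 classes every marker was highest in its own class, and 11 of 12 stem and 18 of 20 enterocyte markers were. The stem-like cluster, the reference of every class comparison, was led by Olfm4, Lgr5 and Igfbp4 together with genes of DNA replication and S phase (Ung, Mcm2, Mcm3, Mcm4, Hells, Cdc6 and E2f1). At resolution 0.8 it divided into 383 cells led by Lgr5 and Olfm4 and 482 cells led by S-phase genes, with 0 stem markers among their top 50 genes. Between 0 and 2 barcodes were shared by a pair of libraries.

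A level is a gene's CPM over all UMIs of a class in 1 library, and 3 levels in a row are those of Arid3a cKO 1, Arid3a cKO 2 and WT. A sum over a class cannot tell fewer expressing cells from less RNA per cell. The log2 fold changes come from 1 edgeR fit on these sums with TMM scaling, each class against stem-like cells, with library as a block. The scaling matters here. On CPM alone the median gene differed from stem-like cells by -0.52 on the log2 scale in enterocyte-like, -0.26 in goblet-like, -2.45 in Paneth-like and 0.33 in enteroendocrine-like cells, and under TMM by -0.085, -0.00605, -0.078 and 0.13. Members whose direction depends on this are named as such.

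Bmp3, a BMP family ligand known to oppose other BMPs, was highest in the crypt and enterocyte-like classes and lowest in enteroendocrine- and Paneth-like cells, which overlapped. In stem-like cells it stood at 22.3, 20.2 and 14.5 CPM, and in TA-like cells at 18.7, 15.8 and 13.6 CPM. Enterocyte-like cells had 17.2, 11.9 and 12.6 CPM, a range that overlapped TA-like cells. Goblet-like cells had 5.49, 6.39 and 4.77 CPM, below every stem-, TA- and enterocyte-like value. Against stem-like cells Bmp3 fell by 1.48 in goblet-like (SE 0.18, edgeR adjusted p = 1.6e-07) and by 1.70 in tuft-like cells (SE 0.34, adjusted p = 0.00026). In enteroendocrine-like cells only 1, 3 and 2 Bmp3 UMIs were counted (1.19, 3.71 and 1.31 CPM), and the log2 fold change was -3.46 (SE 0.38, adjusted p = 2.6e-08).

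Among the receptors, Bmpr1a, a type I BMP receptor, was highest in enteroendocrine-like cells, at 89.4, 67.95 and 109.97 CPM. The other classes outside Paneth-like cells lay between 32.5 and 49.6 CPM, and no library of theirs reached the enteroendocrine-like range. The log2 fold change over stem-like cells was 0.83 (SE 0.12, edgeR adjusted p = 2.4e-06). In tuft-like cells Bmpr1a fell by 0.52 (SE 0.18, adjusted p = 0.030), but not past the threshold without scaling (-0.40) or when Arid3a cKO 1 or WT was left out (-0.60 and -0.47), and it was -0.26 without cells that held a lymphocyte marker UMI.

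Bmpr2, the type II receptor, was highest in tuft-like cells (35.2, 46.4 and 47.5 CPM), followed by enteroendocrine-like cells (40.6, 34.6 and 34.0 CPM), and these ranges overlapped. All other values lay at or below 23.8 CPM. The log2 fold changes over stem-like cells were 1.07 (SE 0.21, edgeR adjusted p = 0.00027) in tuft-like and 0.75 (SE 0.19, adjusted p = 0.0014) in enteroendocrine-like cells, and they held their direction and call without TMM scaling. Enterocyte-like cells had 16.3, 18.1 and 18.2 CPM, against 19.7, 17.98 and 18.2 CPM in stem-like cells. There the fit gave 0.35 for Bmpr2 and 0.20 for Bmpr1a, both past the threshold under TMM, and -0.089 and -0.24 without scaling, so neither direction can be read.

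Smad4, which carries BMP and TGF-beta signals into the nucleus with the receptor Smads, was close to level across stem-like (95.3, 82.4 and 80.3 CPM), TA-like (92.2, 90.2 and 87.2 CPM) and enteroendocrine-like cells (84.7, 96.4 and 72.7 CPM). Goblet-like cells lay lowest outside Paneth-like cells, at 46.97, 39.4 and 43.2 CPM. They fell by 0.74 against stem-like cells (SE 0.085, edgeR adjusted p = 8.3e-08), and by 0.99 without scaling. Enterocyte-like cells were at 61.1, 60.4 and 59.0 CPM, for which TMM gave -0.075 (edgeR adjusted p = 0.33) and the fit without scaling -0.51 (adjusted p = 3.34e-05).

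Smad6 and Smad7 are feedback inhibitors: Smad6 competes mainly in BMP signalling, and Smad7 blocks type I receptors of BMP and TGF-beta alike. Smad6 was highest in enteroendocrine-like cells, at 14.3, 22.2 and 22.9 CPM (12, 18 and 35 UMIs), then in enterocyte-like cells at 9.40, 7.88 and 10.1 CPM. TA-like cells had 7.59, 6.62 and 7.29 CPM and stem-like cells 5.21, 3.82 and 4.21 CPM, and none of these 4 ranges overlapped its neighbour. Over stem-like cells Smad6 rose by 1.98 in enteroendocrine-like (SE 0.27, edgeR adjusted p = 7.1e-07), by 1.47 in enterocyte-like (SE 0.16, adjusted p = 1.1e-08) and by 0.63 in TA-like cells (SE 0.18, adjusted p = 0.019). The TA-like call was lost without Arid3a cKO 2 (0.57, adjusted p = 0.14), without WT (0.56, adjusted p = 0.11) and without the library block (0.63, adjusted p = 0.077). Smad6 was not counted in tuft-like or Paneth-like cells of Arid3a cKO 2, where a floor of 3 UMIs corresponds to 5.36 and 1.18 CPM.

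Smad7 stood at 77.5, 74.6 and 79.98 CPM in enterocyte-like cells and at 53.1, 49.3 and 45.1 CPM in stem-like cells, with no overlap. It rose by 1.10 (SE 0.086, edgeR adjusted p = 2.8e-11), and by 0.66 without scaling. Enteroendocrine-like cells had 60.8, 76.6 and 75.3 CPM and a log2 fold change of 0.35 (SE 0.13, adjusted p = 0.019), which did not pass without Arid3a cKO 2 (0.37) or without WT (0.22). Smad6 and Smad7 were thus both higher in enterocyte-like than in stem-like cells under each scaling.

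The Id genes are known targets of BMP signalling, and the paper also counts Id1, like Smad7, among TGF-beta targets. Their RNA, which was not tested as a measure of receptor activity, did not move together over the classes. Id1 was highest in the crypt: 739.5, 628 and 653 CPM in stem-like and 697, 588 and 637 CPM in TA-like cells, which overlapped. Enteroendocrine-like cells had 415, 492 and 401 CPM, goblet-like cells 321, 288 and 329.8 CPM, enterocyte-like cells 297, 319 and 242 CPM and tuft-like cells 341, 219.7 and 240.0 CPM. Every value outside the crypt classes thus lay under every crypt value. Against stem-like cells Id1 fell by 0.79 in enterocyte-like (SE 0.16, edgeR adjusted p = 0.00012), by 0.84 in goblet-like (SE 0.16, adjusted p = 0.00012), by 0.83 in enteroendocrine-like (SE 0.17, adjusted p = 0.00015) and by 1.46 in tuft-like cells (SE 0.18, adjusted p = 5.8e-07). Without scaling the enterocyte-like value was -1.22.

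Id2 had another pattern. Enteroendocrine-like cells held 410.3, 593 and 498 CPM, while stem-, TA-, enterocyte-, goblet- and tuft-like cells together ranged from 77.8 to 153 CPM. The log2 fold change over stem-like cells was 2.08 (SE 0.14, edgeR adjusted p = 5.4e-12), and 2.30 without scaling. Under TMM Id2 was also above stem-like cells in enterocyte-like (0.58, SE 0.13, adjusted p = 0.00024) and goblet-like cells (0.49, SE 0.14, adjusted p = 0.0041). Without scaling these were 0.14 (adjusted p = 0.52) and 0.23 (adjusted p = 0.33).

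Id3 had similar levels in most classes outside tuft- and Paneth-like cells. Enteroendocrine-like cells had 278, 381 and 332 CPM, stem-like cells 341, 284 and 317, TA-like cells 318, 279.6 and 300.4, and goblet-like cells 312, 276 and 308, and all these ranges overlapped. Enterocyte-like cells were at 260.2, 259.7 and 219 CPM, and here the direction depended on the scaling, with 0.089 under TMM (adjusted p = 0.54) and -0.35 without scaling (edgeR adjusted p = 0.095). Tuft-like cells had 165, 148 and 107 CPM and fell by 1.29 (SE 0.16, adjusted p = 5.6e-07), and Id3 was lower there than in any class but Paneth-like cells, without overlap.

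**Figure D1:**
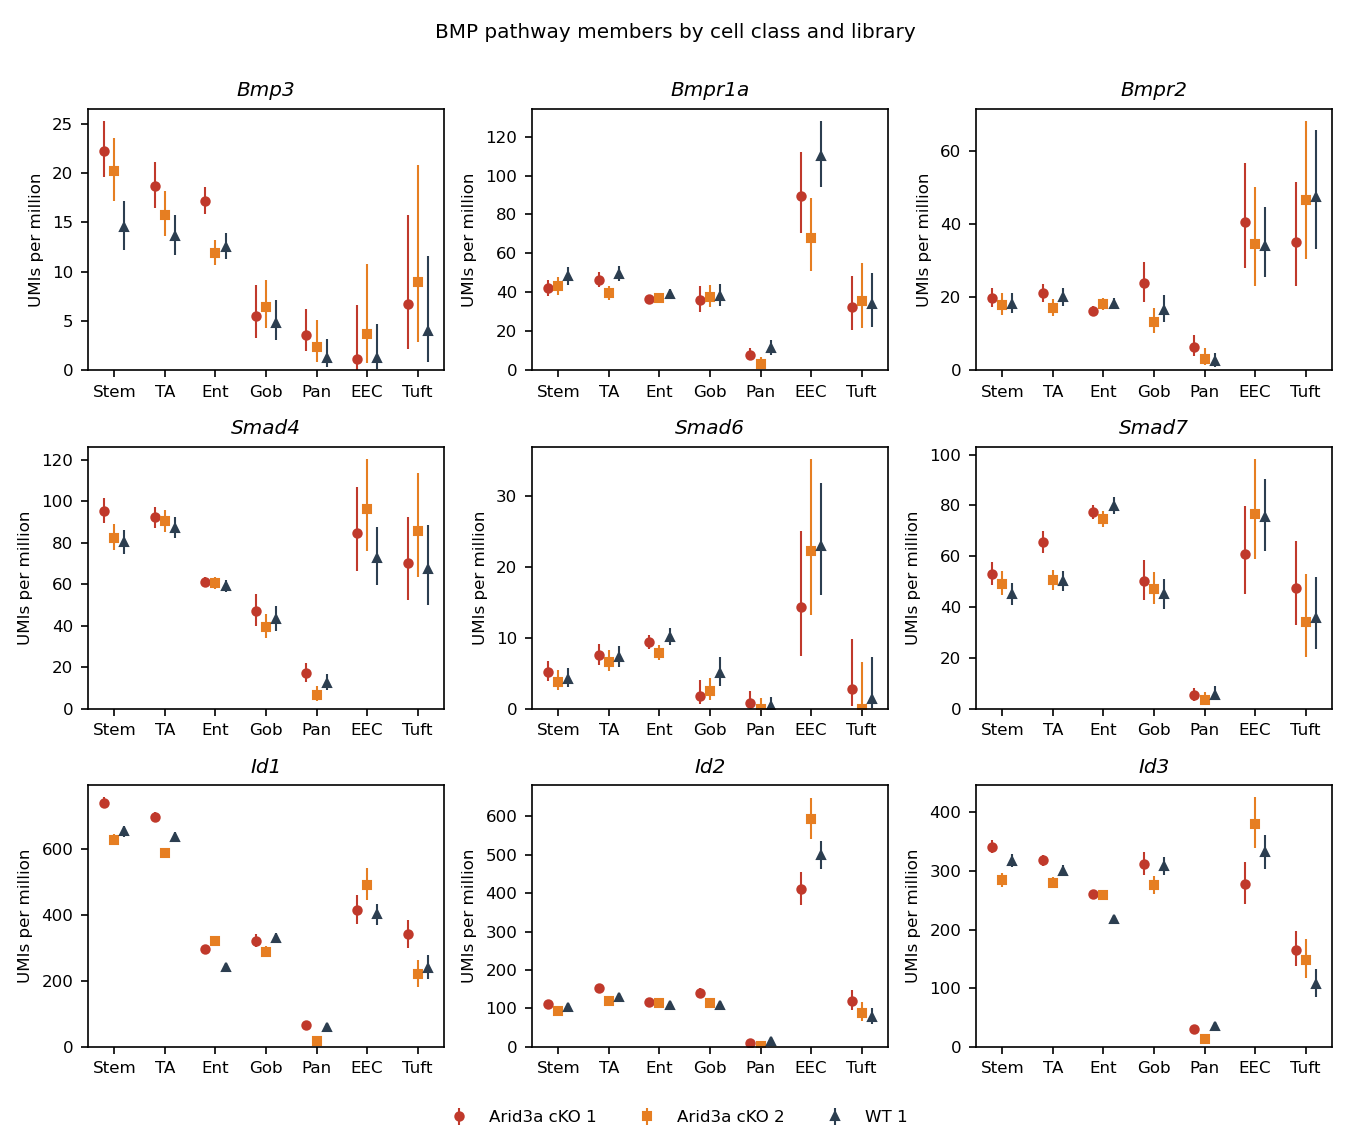
CPM of each member (vertical axis, UMIs of the gene per 1000000 UMIs of the class) in 7 cell classes (horizontal axis: stem-, TA-, enterocyte-, goblet-, Paneth-, enteroendocrine- and tuft-like), with 1 point per library and bars for the 95% Poisson interval, which covers counting error only. Id2 (410.3 to 593 CPM), Smad6 and Bmpr1a stand highest in enteroendocrine-like cells, and Id1 in stem- and TA-like cells. Bmp3 is lowest in enteroendocrine- and Paneth-like cells, which overlap.

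In Paneth-like cells every member had its lowest or second lowest CPM of all classes, such as Id1 at 66.97, 16.5 and 60.7 CPM and Smad7 at 5.28, 3.54 and 5.51 CPM. These cells had a median of 130961 UMIs and are led by defensin genes, and their share of all other genes was low: without scaling 11523 of 13369 genes fell and 281 rose. Under TMM, Id1 fell by 1.42 (SE 0.18, edgeR adjusted p = 2.0e-06), Id2 by 1.14 (SE 0.25, adjusted p = 0.00098), Id3 by 1.14 (SE 0.16, adjusted p = 8.8e-06) and Smad7 by 0.95 (SE 0.21, adjusted p = 0.0013). Smad4 fell by 0.40 (adjusted p = 0.022), but not when any 1 library was left out (adjusted p = 0.066 to 0.19). There were 17 to 34 Paneth-like cells per library.

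Over all genes tested, edgeR called 77% in enterocyte-like, 65% in enteroendocrine-like, 56.3% in goblet-like, 38.1% in tuft-like, 27.1% in Paneth-like and 17.2% in TA-like cells at an adjusted p under 0.05. Of the 9 members 6, 8, 4, 7, 5 and 1 were called, in that order. The called shares, higher and lower, were 36.9% and 40% in enterocyte-like, 36.3% and 28.7% in enteroendocrine-like, 28.5% and 27.8% in goblet-like, 18.9% and 19.2% in tuft-like, 13.4% and 13.7% in Paneth-like and 8.36% and 8.86% in TA-like cells. Of the members, 5 rose and 1 fell in enterocyte-like cells, 5 rose and 3 fell in enteroendocrine-like, 1 rose and 3 fell in goblet-like, 1 rose and 6 fell in tuft-like, 5 fell in Paneth-like and 1 rose in TA-like cells. Without scaling the enterocyte-like split was 2 higher and 4 lower, the goblet-like 0 and 3, the tuft-like 1 and 3, and the Paneth-like 0 and 9. Over all 13369 genes the unscaled counts, higher and lower, were 3193 and 7070, 2626 and 5080, 2723 and 1687, and 281 and 11523, in that order. The median member stood at 0.20 in enterocyte-like, 0.35 in enteroendocrine-like and -0.52 in tuft-like cells, beside medians of -0.085, 0.13 and -0.028 over all genes.

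**Figure D2:**
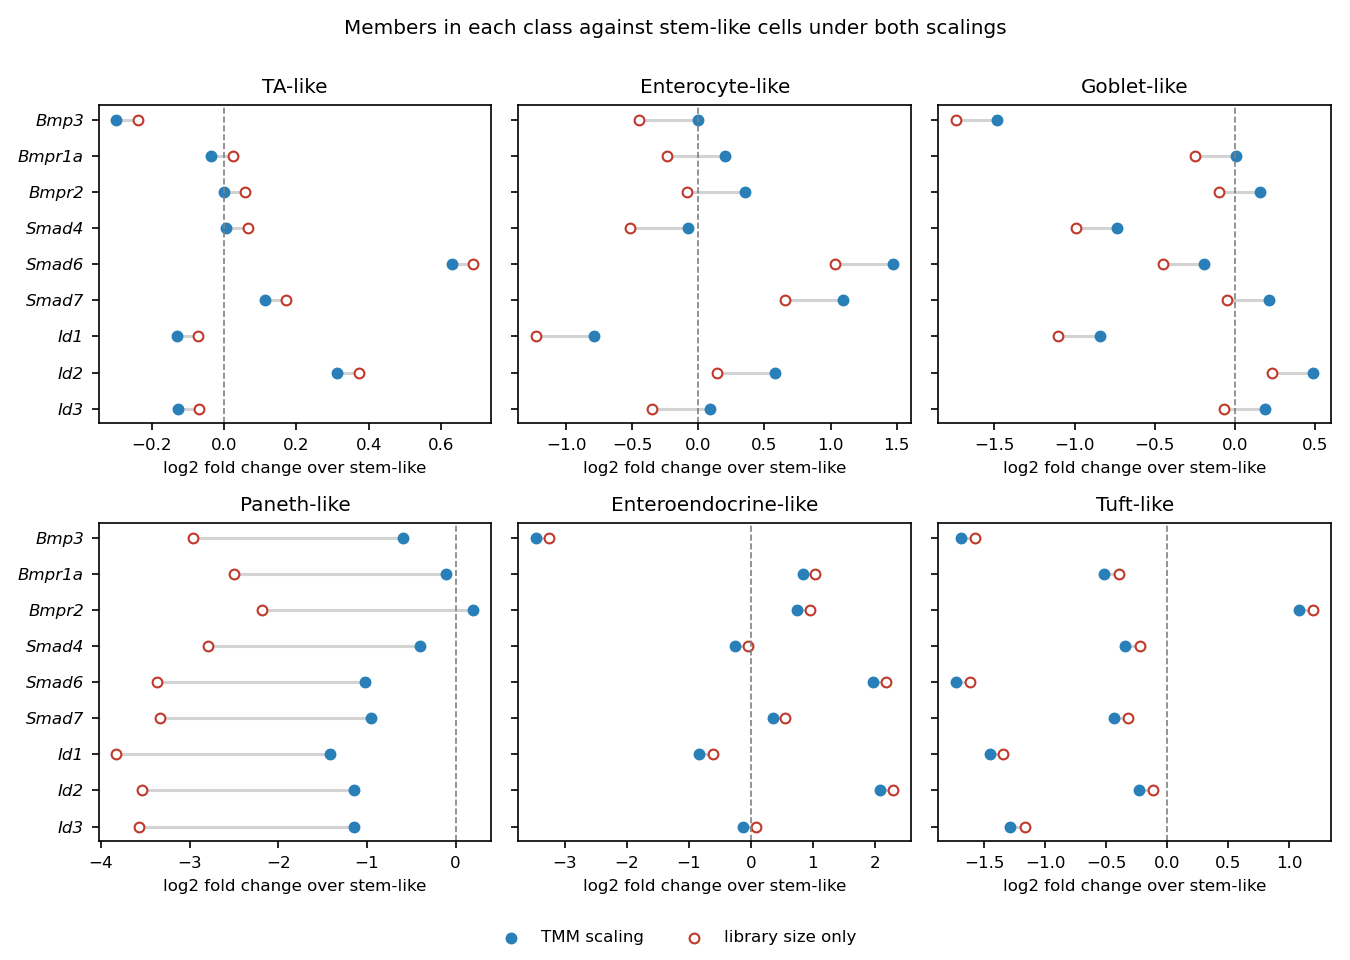
Log2 fold change of each member in 6 classes over stem-like cells (horizontal axis), under TMM scaling (filled points) and with library size only (open points). In enterocyte-like cells Bmpr1a and Bmpr2 lie on opposite sides of 0 under the 2 scalings (0.20 and -0.24, 0.35 and -0.089), Id1, Smad6 and Smad7 stay on one side, and in Paneth-like cells all 9 lie below 0 with library size only.

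Other BMP and TGF-beta genes were read from lists of 62 ligands, receptors, Smads, inhibitors, targets and E proteins, of which 35 were abundant enough for the class fit. Bmp4, a mesenchymal ligand, had 4 UMIs and Grem1, a mesenchymal BMP antagonist, 1 UMI in all cells together. In enterocyte-like cells 31 of the 35 were called, 12 higher and 19 lower than in stem-like cells (26 called without scaling, 6 higher and 20 lower). Over all genes 77% were called under TMM, 36.9% higher and 40% lower. Maf, listed as a target here and a transcription factor of villus enterocytes, rose most: 286 CPM in enterocyte-like against 30.7 CPM in stem-like cells on average, a log2 fold change of 3.66 (SE 0.14, edgeR adjusted p = 4.5e-17). Skil, a repressor of Smad transcription, rose by 1.42. Bambi, a decoy receptor, fell by 2.76, Rgmb, a BMP co-receptor, by 2.62, and Pmepa1, a TGF-beta inhibitor, by 2.30. Acvr2b fell by 1.63, Tgfb1 by 1.62 and Tgfbr2 by 1.45. The Tgfb1 value was the least certain (SE 0.63, edgeR adjusted p = 0.023), and this gene was named only through its level in enteroendocrine-like cells. The 3 E protein genes, whose products Id proteins bind, were all lower in enterocyte-like cells, with a median of -0.72.

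In enteroendocrine-like cells 25 of 35 pathway genes were called, 19 higher and 6 lower, beside 4852 of 13369 higher and 3842 lower over all genes. Acvrl1, a type I receptor best known from endothelium, averaged 50.4 CPM (40.6 to 61.8) there and at most 0.595 CPM on average in any other class. Its log2 fold change was 8.08 (SE 0.45, edgeR adjusted p = 2.6e-13). Tgfb1 rose by 4.86, to a mean of 35.6 CPM, Bambi by 3.88 to 78.2 CPM, Twsg1, an extracellular BMP modulator, by 1.51, Skil by 1.31 and the receptor gene Acvr1 by 1.29. Tgfbr2 fell by 1.79 and Rgmb by 1.20. With means of 7.43 and 6.38 CPM over the class sums, Acvrl1 and Tgfb1 met the 5 CPM for naming only through these cells. Their selection thus favoured a rise here, and their p-values do not allow for it. Endothelial markers summed to 0.639 to 0.895 CPM in enterocyte-like, 8.01 to 9.27 CPM in stem-like and 10.7 to 17.1 CPM in tuft-like cells. In enteroendocrine-like cells they summed to 39.4, 21.004 and 20.9 CPM. Of the 8 endothelial markers 3 were seen, while Cdh5, Kdr, Plvap, Flt1 and Cldn5 were at 0 UMIs in all 3 libraries. Myeloid markers summed to 14.4 to 21.004 CPM with 2 of 7 genes seen in each library and Csf1r, Adgre1, Itgax and C1qb at 0, and their part in the enteroendocrine-like values was not tested.

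In goblet-like cells 19 of 35 pathway genes were called, 8 higher and 11 lower, beside 56.3% of all genes (28.5% higher and 27.8% lower). Bmp2, a BMP ligand, averaged 27.7 CPM there against 4.88 CPM in stem-like cells, a rise of 2.77 (SE 0.18, edgeR adjusted p = 3.7e-12). Maf rose by 1.29, Skil by 0.97 and Acvr1 by 0.86, while Rgmb fell by 1.65, Smad2 by 0.89, Acvr2b by 0.77 and Tgif1, a corepressor of TGF-beta targets, by 0.76. Id4, the other gene of the Id family, was singled out after its values were seen: it averaged 13.2 CPM in goblet-like cells (158 UMIs) and at most 0.451 CPM on average in any other class. Fibroblast markers summed to 65.8 CPM in goblet-like cells of Arid3a cKO 2, with 6 of 10 genes seen, against at most 1.22 CPM in the other 2 libraries, and their part in goblet-like values was not tested.

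In tuft-like cells 14 of 35 were called, 7 in each direction, beside 38.1% of all genes (18.9% higher and 19.2% lower). Bmp2 reached 35.6 CPM on average and rose by 2.82 (SE 0.27, edgeR adjusted p = 1.4e-08), with values from 16.1 to 47.4 CPM. Bambi rose by 1.47, Tgfbr1 by 0.87, Smad5, a BMP receptor Smad, by 0.79 and Tcf4, an E protein gene, by 0.59, while Rgmb fell by 1.46, Tgfbr2 by 1.25 and Tcf3 by 0.62. A lymphocyte marker list summed to 33.9 to 103 CPM in tuft-like cells. In Arid3a cKO 1 this was Ptprc alone, with the other 11 markers at 0, and Cd3d, Cd3e, Cd3g, Cd8a and Trac were at 0 in all 3 libraries. Without the cells that held such a UMI, 37.0 to 50% of tuft-like cells, 4 of the 9 members were called in place of 7.

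In Paneth-like cells 9 of 35 were called, beside 27.1% of all genes. Bambi rose by 6.93, to 99.3 CPM on average (88.1 to 109), and by 4.45 without scaling (edgeR adjusted p = 4.5e-18 under TMM). Tgfb1 rose by 3.15 under TMM and did not pass without scaling (0.71). Tcf12, Acvr1, Pmepa1 and Rgmb rose under TMM by 1.89, 0.99, 0.69 and 0.59 and fell without scaling, and Neo1 and Tcf3 fell under both, by 0.87 and 0.82 under TMM. In TA-like cells 7 of 35 were called, all lower, beside 17.2% of all genes (8.36% higher and 8.86% lower). Without scaling 6 were called, 2 higher and 4 lower, beside 1173 higher and 676 lower over all genes. Of the 7 called under TMM, the abundant ones were led by Rgmb (-0.76), Acvr2b (-0.54), Tgif1 (-0.31) and Neo1 (-0.29). Of these 4, Rgmb alone also passed without scaling.

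**Figure D3:**
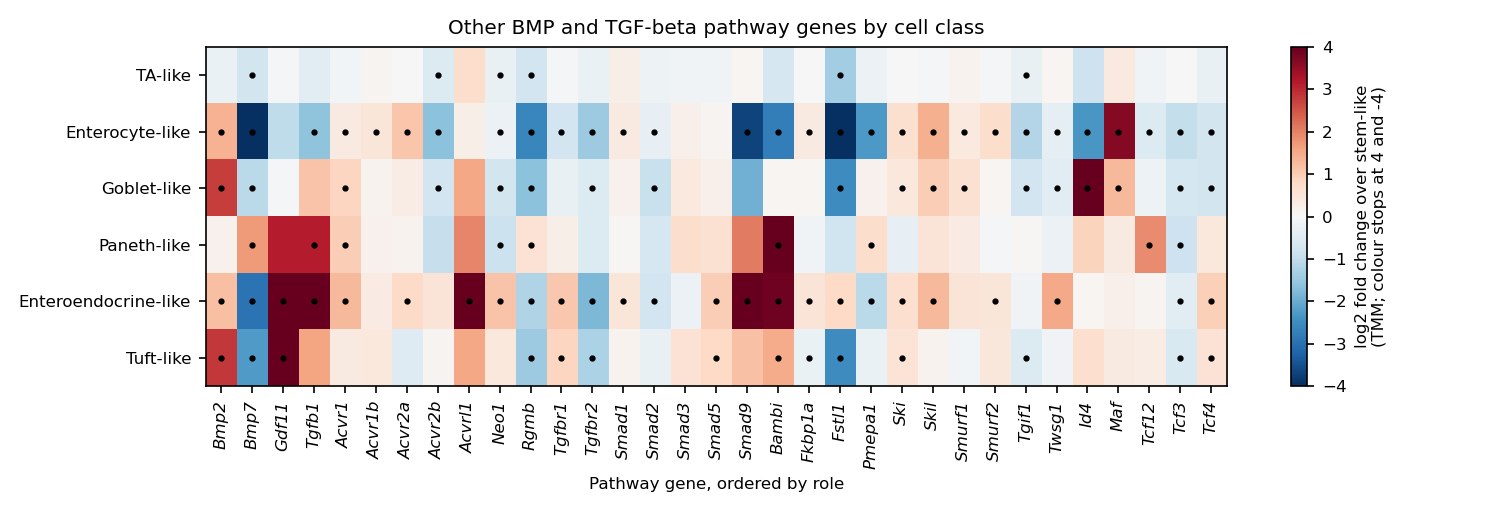
Log2 fold change over stem-like cells under TMM (colour, ending at 4 and -4) for 33 pathway genes with at least 5 CPM in some class (columns, from ligands to E proteins) in 6 classes (rows), and black dots for edgeR adjusted p under 0.05. Bmp2 is higher in goblet- and tuft-like cells, Maf in enterocyte-like cells, Bambi in Paneth- and enteroendocrine-like cells, and Rgmb is lower in enterocyte-, goblet-, tuft- and enteroendocrine-like cells.

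To follow the members within absorptive cells, enterocyte-like cells of each library were ranked by villus-tip minus villus-base genes, none of them a member, and cut into quintiles of 170 to 240 cells. All 7 tip genes were higher in the highest than in the lowest quintile of every library, as the ranking requires. Apoa4 stood there at 8463, 9558 and 6191 CPM and Enpp3 at 73.3, 158 and 84.9 CPM, while Ada was at 7.51, 201 and 11.6 CPM and Nt5e at 0.958, 4.64 and 1.32 CPM. The quintiles are therefore named by rank and not by villus position. The highest quintile had fewer UMIs per cell than the lowest (medians of 24249 to 27907 against 30183 to 36468) and more mitochondrial UMIs (7.11 to 8.61% against 3.53 to 5.41%). Lymphocyte markers were concentrated in it, at 30.7, 263 and 483 CPM. From the lowest to the highest quintile the median gene changed by -0.0045 on the log2 scale under TMM and by -0.29 without scaling.

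Bmp3 showed the steepest gradient of the 9 genes. From the lowest to the highest quintile it went through 43.6, 24.8, 8.70, 3.04 and 2.40 CPM in Arid3a cKO 1, through 29.9, 14.6, 7.27, 1.21 and 0 CPM in Arid3a cKO 2, and through 36.5, 16.1, 3.69, 0.705 and 0 CPM in WT. It fell at each step in all 3 libraries. The lowest quintile was 18.2 times the highest in Arid3a cKO 1, and at least 40.9 and at least 55.4 times in Arid3a cKO 2 and WT, taking 3 UMIs as the floor in each library. The log2 fold change was -4.97 (SE 0.36, edgeR adjusted p = 1.4e-10), and -5.26 without scaling. The lowest-quintile level also exceeded that of stem-like cells in every library. Bmp3 was among the top 10 genes of the enterocyte-like cluster that held most lowest-quintile cells, although it was no clustering feature.

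Id3 was highest in the lowest quintile, at 365, 343 and 286 CPM, against 211, 239 and 163 CPM in the highest. It fell by 0.42 (SE 0.088, edgeR adjusted p = 0.00028), and by 0.70 without scaling. Id1 was likewise highest in the lowest quintile of each library, at 422, 391 and 285 CPM. In the highest quintile it stood at 272, 323 and 228 CPM. The difference was -0.13 under TMM (edgeR adjusted p = 0.35) and -0.42 without scaling (adjusted p = 0.0048), the latter beside a median of -0.29 over all genes. In Arid3a cKO 2 Id1 climbed again, from 258 CPM in the second quintile to 351 CPM in the fourth.

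Id2 went the other way, from 106, 90.9 and 86.5 CPM in the lowest to 133, 132 and 117 CPM in the highest quintile, with no overlap between the quintiles. It rose by 0.71 (SE 0.093, edgeR adjusted p = 1.1e-06), and by 0.43 without scaling, still past the threshold. With cells that held a lymphocyte marker UMI left out, the rise was 0.71 as well.

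For the other members the call rested on the scaling or the alternative, and for Smad4 the direction did too. Smad7 (66.1 to 77.7 CPM in the lowest, 75.6 to 91.6 in the highest quintile), Bmpr1a (34.8 to 39.8, 36.2 to 45.7) and Bmpr2 (15.1 to 19.8, 16.9 to 23.9) rose under TMM, by 0.49, 0.42 and 0.52 (edgeR adjusted p = 0.00037, 0.00039 and 0.00071). None of the 3 passed without scaling (0.21, 0.14 and 0.23). Smad4 gave 0.23 under TMM (adjusted p = 0.012) and -0.052 without, and lost its call without WT (0.14, adjusted p = 0.22). Smad6 did not pass (0.43, adjusted p = 0.053), but did without Arid3a cKO 1 (0.63, adjusted p = 0.014), with wider cell limits (0.43, adjusted p = 0.038), at clustering resolution 0.8 (0.46, adjusted p = 0.044) and over tertiles (0.39, adjusted p = 0.035). In all, 7 of 9 members were called, 5 higher and 2 lower, where 66.1% of 10867 genes were (33% higher and 33.1% lower). Without scaling 4 members were called, 1 higher and 3 lower, where 2400 of the 10867 genes were higher and 4974 lower.

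**Figure D4:**
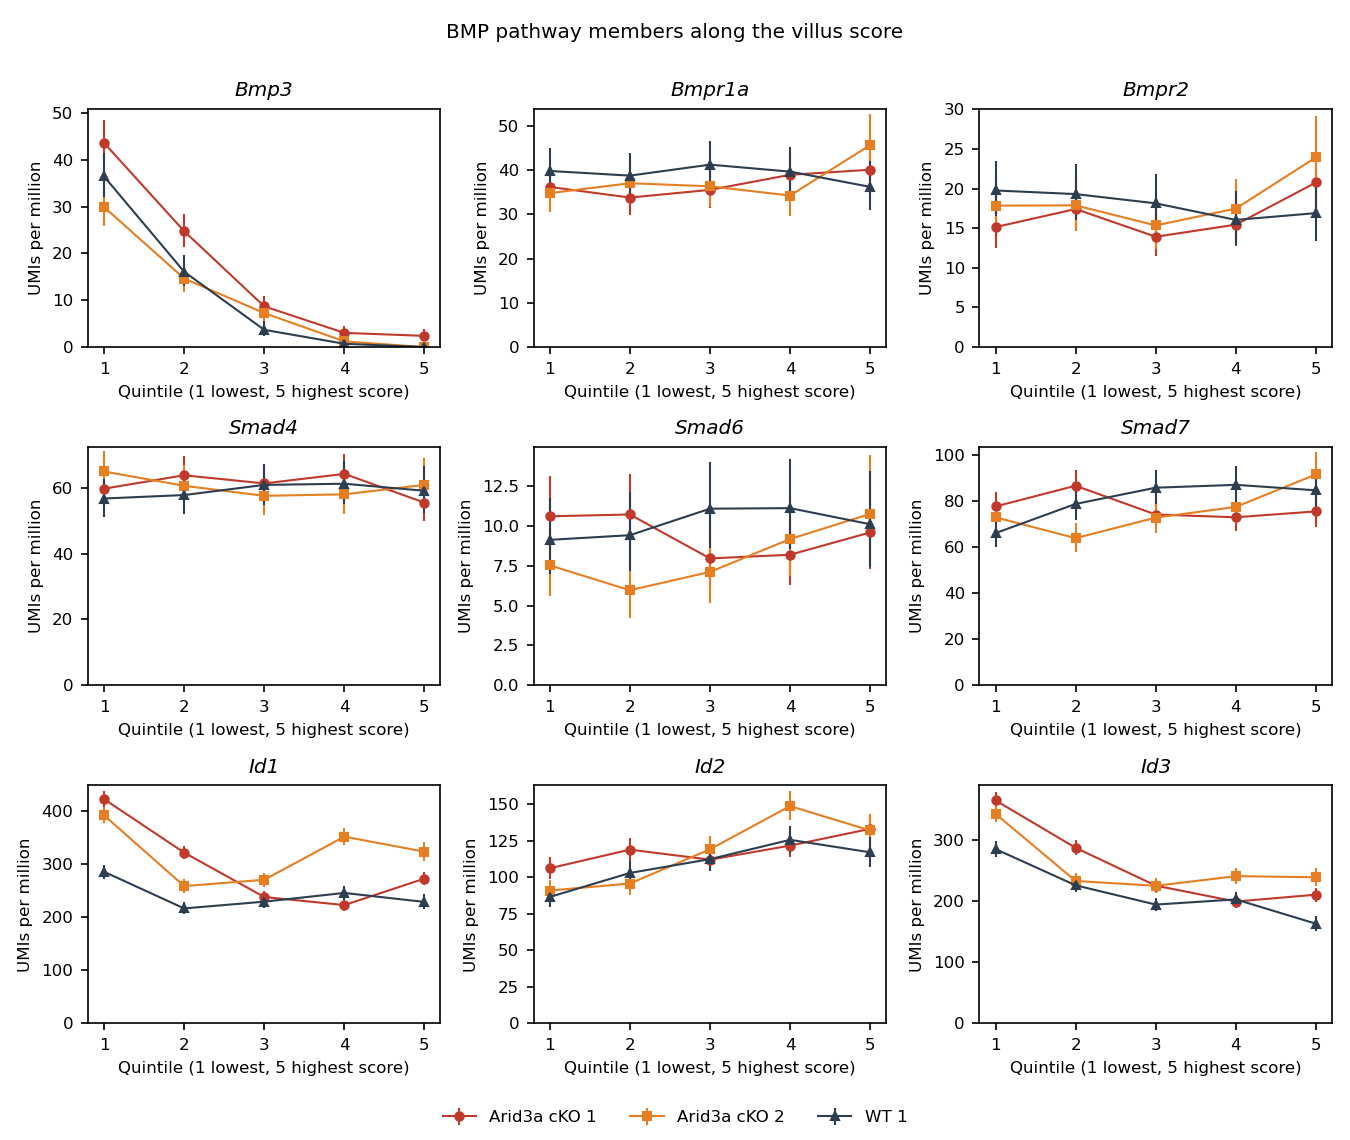
CPM of each member (vertical axis) in quintiles of enterocyte-like cells ranked from villus-base to villus-tip gene expression (horizontal axis), 1 line per library, with 95% Poisson intervals for counting error. Bmp3 drops from 29.9 to 43.6 CPM to between 0 and 2.40 CPM in all 3 libraries, Id3 declines, and Id2 climbs.

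Of the other pathway genes, 27 were testable along the quintiles and 17 were called, beside 66.1% of all genes. Of the 17, 10 were higher and 7 lower in the highest quintile (7 and 9 of those called without scaling). Maf rose from a mean of 183 to 389.6 CPM (1.37, SE 0.072, edgeR adjusted p = 1.3e-12), Smad5 from 6.74 to 13.4 CPM (1.26) and Bmp2 from 7.18 to 12.9 CPM (1.13). Acvr2a, a type II receptor, rose by 1.02, Skil by 1.00 and Twsg1 by 0.74, while Tgif1 fell by 1.01 and Rgmb by 0.82. All 8 kept their direction and their call without scaling. Among ligands, Bmp2 and Bmp3 thus ran in opposite directions over the same cells.

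The study asked what loss of Arid3a does to the epithelium, and the members were compared between genotypes in enterocyte-like, in stem- and TA-like together, and in goblet-like cells. None of the 9 passed in any of the 3 comparisons by edgeR's quasi-likelihood test, where 0.833%, 1.49% and 0.595% of all genes did, and none by DESeq2. At an unadjusted p under 0.05 there were 2, 1 and 0 of the 9, beside 13.6%, 7.98% and 8.12% of all genes. With 1 WT library the fit had 1 residual degree of freedom and assumes that WT varies as the Arid3a cKO libraries do.

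In enterocyte-like cells the largest difference was that of Id1, at 297 and 319 CPM in the knockout libraries, beside 242 CPM in the WT library. Both Arid3a cKO values lay above WT, with a log2 fold change of 0.34 (95% interval 0.099 to 0.58, edgeR adjusted p = 0.23). It passed only where genes with low counts were not filtered out (0.35, adjusted p = 0.030). Id3 was 260.2 and 259.7 CPM against 219 CPM (0.24, interval 0.029 to 0.46, adjusted p = 0.31), and Id2 was 118 and 115 CPM against 108 CPM (0.10, adjusted p = 0.63). Both Arid3a cKO libraries thus lay above WT for all 3 Id genes, and they lay on one side of WT for 8 of the 9 members, as they did for 74.6% of all genes with at least 10 UMIs.

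Within the quintiles, Id1 and Id3 were above WT in both Arid3a cKO libraries in every quintile but the fourth. In the lowest, Id1 stood at 422 and 391 against 285 CPM and Id3 at 365 and 343 against 286 CPM. In the fourth quintile Arid3a cKO 1 was below WT for both genes (223 against 245 CPM for Id1, 199.6 against 203 CPM for Id3). Lymphocyte markers summed to 5.56, 37.6 and 75.6 CPM in enterocyte-like cells. Without cells that held such a UMI, Id1 gave 0.34 and Id3 0.24.

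In stem- and TA-like cells Bmp3 differed most, at 20.3 and 17.5 CPM in the knockout libraries, beside 14.0 CPM in the WT library (0.44, 95% interval 0.15 to 0.74, edgeR adjusted p = 0.14). Id1 was 716 and 604 CPM against 644 CPM, Id2 135 and 109 against 118 CPM and Id3 328 and 281 against 307 CPM, so that WT lay between the Arid3a cKO libraries for all 3. Their log2 fold changes were 0.044, 0.056 and -0.0041. Both Arid3a cKO libraries were on one side of WT for 4 of the 9 members, beside 68.1% of all genes.

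In goblet-like cells Smad6 was lowest in Arid3a cKO, with 6 and 11 UMIs (1.83 and 2.42 CPM) against 25 UMIs in WT (4.97 CPM). The log2 fold change was -1.19 with a 95% interval from -2.45 to 0.068 (edgeR adjusted p = 0.65). The other 8 members differed by -0.11 to 0.33. The genotype effect was also compared between enterocyte-like and crypt cells, and for no member did this difference pass (adjusted p from 0.58 to 0.97, with 0.309% of genes called), with Id1 at 0.31 and Smad7 at -0.27 the furthest from 0.

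No other pathway gene passed in any genotype comparison. Of 32, 34 and 31 tested in enterocyte-like, stem- and TA-like, and goblet-like cells, 4, 2 and 2 had an unadjusted p under 0.05, beside the 13.6%, 7.98% and 8.12% of all genes, and their medians were -0.021, 0.026 and 0.022 beside 0.0022, 0.00068 and 0.01 over all genes.

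**Figure D5:**
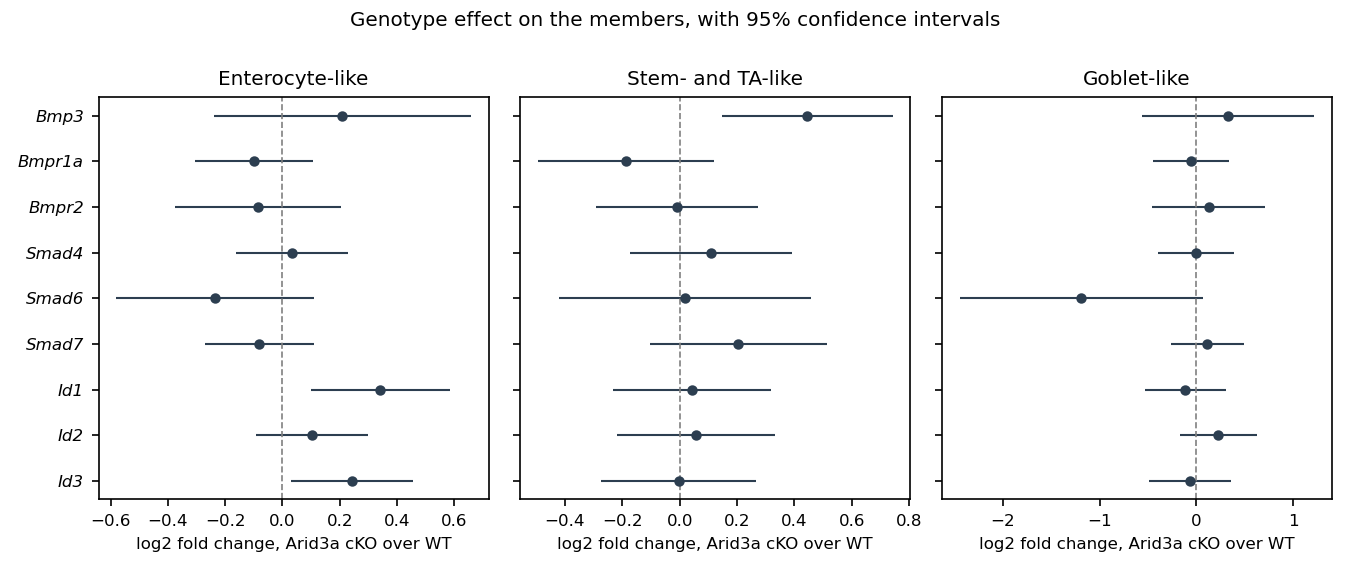
Log2 fold change of each member between Arid3a cKO and WT (horizontal axis) in 3 groups of cells, with 95% confidence intervals from the edgeR fit of 2 libraries against 1. In enterocyte-like cells the intervals of Id1 (0.099 to 0.58) and Id3 (0.029 to 0.46) lie above 0, as does that of Bmp3 in stem- and TA-like cells (0.15 to 0.74), and none of the 9 passes the adjusted threshold.

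Genes with the most similar pattern were sought among 5541 genes over 21 sums (3 libraries by 7 classes), which share depth and the low Paneth-like values, so that r is a description. For Id2 these were Nckap1 (r = 0.98, and 0.96 over 18 sums without Paneth-like cells), Smpd3 and Zfpm1, and for Bmpr1a they were Zfpm1 (0.98 and 0.94), Clock and Id2 itself (0.97 and 0.88). Bmp3 was closest to Agmat (0.94 and 0.95), Fam210a and Otc, Bmpr2 to Dlg1 (0.98 and 0.97), Zfc3h1 and Ate1, and Smad6 to Sdccag8 (0.92 and 0.90) and Clcn5. Smad7 was closest to Klf6 (0.99 and 0.89), Clptm1 and Gdi2, Smad4 to Aggf1 (0.99 and 0.93) and Stag2, and Id1 to Smc6 (0.98 and 0.91), Pts and Brcc3. For Id3 the nearest were Pkp2 (0.97 and 0.78), Lias and Ei24, whose likeness dropped most without Paneth-like cells. Between Id1 and Id2, r was 0.82 over all sums and 0.18 without Paneth-like cells, and between Id1 and Id3 it was 0.94 and 0.65.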

How the data were processed

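Each library's deposited matrix holds whole UMI counts that the authors obtained from CellRanger 5.0.0. The build used in counting is not given in the sources used here; 51633 of 51912 gene identifiers (99.5%) occur in GENCODE M21 (GRCm38). Cells were kept, integrated (Seurat 5.3.0, canonical correlation analysis, 3000 features, 30 components) and clustered (resolution 0.3) with the study's limits, without the 71 member and pathway genes. Clusters (12) were named from markers by a rule set after seeing them. Doublets were kept; Scrublet (scanpy 1.11.5) called 110 cells. The members and lists were chosen with earlier results of these data known. Counts were summed per library and class and tested with edgeR 4.0.16 (quasi-likelihood, TMM, filterByExpr, Benjamini-Hochberg over all genes, 0.05), checked on simulated data. Of simulated 2-fold changes in genes of at least 20 CPM, the genotype fits recovered 60% in enterocyte-like cells. They recovered 65% in stem- and TA-like and 54% in goblet-like cells. The named genes were all members, called pathway genes (up to 10 per genotype comparison, up to 8 per class or quintile contrast with a mean of at least 5 CPM) and up to 3 genes of like pattern (at least 20 CPM), of which some are not reported here. Alternatives covered cell limits, resolution, doublets, lymphocyte-marker cells, size factors, filter, DESeq2 1.42.0, left-out libraries, the block, means over cells and tertiles; library-size scaling and Paneth-like sums left out were added after seeing the data.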

Additional observations from a re-analysis of the deposited data

How the results depend on the processing

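Most values kept their direction and side of the threshold, and the cause of the changes listed was not tested. The genotype comparisons called 112, 214 and 67 genes in enterocyte-, stem- and TA-, and goblet-like cells. With at least 500 genes and at most 25% mitochondrial UMIs per cell they called 219 and 142 (enterocyte-, goblet-like), at resolution 0.8 386, 135 and 106, without the highest doublet scores 357, 142 and 421, and without lymphocyte-marker cells 279 in enterocyte-like cells. RLE factors gave 83 and 44 (stem- and TA-, goblet-like), DESeq2 44 and 15, no filter 691 and 164 (enterocyte-, goblet-like, with 1 member, Id1, in the former) and library-size scaling 256 and 36. Genotype values that changed sign were, in stem- and TA-like cells, Smad6 (-0.019 with wide cell limits, -0.053 without doublet scores, -0.015 without lymphocyte-marker cells), Bmpr2 (0.029 and 0.029 under the former pair) and Id3 (0.0015 with RLE, 0.00078 with DESeq2). In goblet-like cells they were Id1 (0.14 with wide limits, 0.070 at resolution 0.8), Bmpr2 (-0.014 and -0.016), Id3 (0.082) and Bmp3 (-0.56), the last pair without doublet scores. As a mean over cells, with no test, values that moved by more than the spread between Arid3a cKO libraries were 0.15, 0.28, -0.037 and 0.097 for enterocyte-like Id2, Id3, Bmpr1a and Smad4 and -0.0034, 0.35 and 0.85 for goblet-like Id1, Smad7 and Bmp3. With 1 Arid3a cKO library left out, the values are ratios of CPM without TMM and carry no test. Those of enterocyte-like Id2, Id3, Bmpr1a and Smad4 also moved and kept their sign. The change of scaling was not separated from the left-out library.

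Against stem-like cells the TA-like comparison called 2302 genes and 1 member, and 0 members with wide limits, 2 without a filter and 2 without Paneth-like sums. TA-like Bmpr1a was 0.00038 with wide limits, 0.022 without doublet scores and 0.024 with library-size scaling. TA-like Bmpr2 was 0.021, 0.0036, 0.018, 0.059 and 0.027 at resolution 0.8, without doublet scores, without a filter, with library-size scaling and without Paneth-like sums, and TA-like Smad4 was -0.0045 without lymphocyte-marker cells and -0.0016 with DESeq2. Enterocyte-like Id3 was -0.0088 with wide limits, Smad4 0.020 there, and Bmp3 0.022, 0.027, 0.028 and 0.022 at resolution 0.8, without doublet scores, without a filter and without Paneth-like sums. Goblet-like Bmpr1a was -0.039 without a filter, -0.0072 with RLE and -0.0074 with DESeq2. Tuft-like calls were 5094 genes and 7 members, and 3232 and 4 without lymphocyte-marker cells. With library-size scaling, values were -0.35, -0.24 and -0.089 for enterocyte-like Id3, Bmpr1a and Bmpr2, -0.071, -0.048, -0.25 and -0.10 for goblet-like Id3, Smad7, Bmpr1a and Bmpr2, -2.18 for Paneth-like Bmpr2 (11804 genes and 9 members called, in place of 3623 and 5), 0.084 for enteroendocrine-like Id3 and -0.052 for Smad4 over the quintiles, with 4 members called in tuft-like cells and 4 over the quintiles.

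With 1 library left out at a time, TA-like cells had 1129 to 1625 genes and 0 to 1 members, Paneth-like cells 3 to 4 and tuft-like cells 4 to 6 members. TA-like Bmpr1a ranged from -0.059 to 0.012, Bmpr2 from -0.054 to 0.035 and Smad4 from -0.047 to 0.11; enterocyte-like Id3 from -0.019 to 0.17, Bmp3 from -0.12 to 0.14 and Smad4 from -0.12 to 0.038; goblet-like Smad6 from -0.80 to 0.18 and Bmpr1a from -0.036 to 0.047; Paneth-like Bmpr1a from -0.41 to 0.079 and Bmpr2 from -0.064 to 0.46; and Id1 over the quintiles from -0.21 to 0.0082. No paired analysis was possible because Arid3a cKO and WT share only replicate number 1. Without the library block the TA-like comparison called 1119 genes and 0 members. Depth limits Bmp3 and Smad6 in the rarer classes, with 1 to 3 and 12 to 35 UMIs per library in enteroendocrine-like cells, and the single WT library limits every genotype value.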
